A study of Homo sapiens with 6 samples.

Results

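Hypoxia-induced genes and the subunits of the factor that drives them were followed across 6 RNA-seq libraries of BHT101, an established human cell line from an anaplastic thyroid carcinoma. The 10 genes were chosen by name from the 32896 genes of the deposited table, with earlier results of these libraries known, because hypoxia genes had been seen to differ between libraries. They are CA9, NDUFA4L2, NXPH4, EGLN3, VEGFA, ADM, BNIP3 and ANKRD37, which are induced in hypoxia, and HIF1A and EPAS1, which encode alpha subunits of hypoxia-inducible factor (HIF). All 10 are in the table, each as a single row. Since their values across these libraries chose them, those values are given as a description. The cells had been transfected for 48 h with an SK4 plasmid (3 libraries) or a control plasmid (3 libraries); SK4 is the calcium-activated potassium channel encoded by KCNN4. All were grown under the same stated culture conditions, and no low-oxygen treatment, oxygen measurement or cell density is given in the labels. For control replicate 3 the cell line is given as BHT101 in one label and as BHT102 in the label on treatment. Whether a group's libraries were grown as separate cultures is not stated, and p-values then measure a spread that may be technical.

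In cells with enough oxygen, prolyl hydroxylases of the EGLN family mark the HIF alpha subunits for destruction by the VHL ubiquitin ligase. When oxygen is short the alpha subunits persist, pair with ARNT and bind short DNA elements with the core letters ACGTG or GCGTG near their target genes. The regulation of HIF1A and EPAS1 thus lies largely at the level of the protein, which RNA-seq does not measure. Targets serve acid balance, glycolysis, mitochondrial turnover and vessel growth, and they include EGLN3 itself as a feedback inhibitor.

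The promoter sequences of CA9, BNIP3 and ANKRD37 are shown because all hold the core ACGTG while the genes differed in how they varied between libraries. They are the 250 bases before the RefSeq start in GRCh38.p14, 5′ to 3′ on the gene's strand, with ACGTG or its reverse complement CACGT in capitals. RefSeq promoter entries were found for 7 of the 10 genes. NDUFA4L2, NXPH4 and VEGFA were not matched.
CA9, plus strand, chr9:35673678-35673927: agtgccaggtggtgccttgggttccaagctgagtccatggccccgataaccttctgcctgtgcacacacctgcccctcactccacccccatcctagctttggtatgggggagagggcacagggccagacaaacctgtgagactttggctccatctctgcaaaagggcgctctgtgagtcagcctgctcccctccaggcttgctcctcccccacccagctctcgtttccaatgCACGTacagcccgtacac
BNIP3, minus strand, chr10:131981924-131982173: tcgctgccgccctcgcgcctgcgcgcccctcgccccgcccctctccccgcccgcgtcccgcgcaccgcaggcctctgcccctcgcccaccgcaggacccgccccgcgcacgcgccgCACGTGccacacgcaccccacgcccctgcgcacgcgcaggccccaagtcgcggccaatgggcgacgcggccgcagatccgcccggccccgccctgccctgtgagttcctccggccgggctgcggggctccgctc
ANKRD37, plus strand, chr4:185396591-185396840: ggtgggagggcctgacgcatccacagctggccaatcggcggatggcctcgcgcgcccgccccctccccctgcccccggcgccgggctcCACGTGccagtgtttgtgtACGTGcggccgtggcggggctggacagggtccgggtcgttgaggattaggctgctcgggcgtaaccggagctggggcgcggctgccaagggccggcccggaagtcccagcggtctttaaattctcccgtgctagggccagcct
In CA9 the core lies on the opposite strand, with its far end 18 bases before the start. In BNIP3 a CACGTG stretch, which reads as the core on both strands, begins 134 bases before the start. ANKRD37 has such a stretch 162 bases before the start and a further core at 143 bases. ACGTG on either strand was found in 18.5% of all 35116 promoters of this length, and GCGTG on either strand in 32.2%. ADM, HIF1A and EPAS1 held 1 GCGTG match each and no ACGTG, BNIP3 held 4 GCGTG matches, and EGLN3 held neither core in this window. HIF1A has a second RefSeq start, whose window held neither. These matches are a description of the letters.

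The libraries held an estimated 29700000 to 38500000 fragments, with control replicate 3 the shallowest, and 10735 to 11147 genes reached 1 FPKM (fragments scaled to gene length and library depth, the deposited unit). KCNN4 was at 167 ± 18.3 FPKM in the SK4 libraries and 8.36 ± 0.138 FPKM in the control libraries (SD, n = 3 each), which checks the labels. Of the epithelial markers, KRT8, KRT18, KRT19 and KRT7 lay above 50 FPKM in every library. Thyroid markers such as TG, TSHR, NKX2-1 and SLC5A5 lay at or below 0.08 FPKM, and PAX8 at 0.24 to 0.40 FPKM. The leukocyte genes PTPRC and CD3E and the endothelial genes VWF and CDH5 were at or below 0.04 FPKM. Other markers of those and of stromal cells were higher, with CD14 at 3.32 to 4.43 FPKM, PECAM1 at 0.26 to 0.40 FPKM and PDGFRA at 1.66 to 2.39 FPKM. Control replicate 3 and SK4 replicate 2 stood apart from the other libraries. Among tested genes of the lowest GC quartile (at most 43.0% in the longest transcript), the median deviation from a gene's own mean was -0.117 in SK4 replicate 2 and -0.204 in control replicate 3 on the log2 scale, against 0.045 to 0.116 in the other libraries. In the highest GC quartile (at least 57.3%) it lay between -0.026 and 0.038 in all 6.

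CA9, NDUFA4L2 and NXPH4 varied most between libraries, and they did so together. CA9 encodes carbonic anhydrase IX, a membrane enzyme that hydrates carbon dioxide at the outer cell surface and helps to dispose of acid. It held 0.85, 1.89 and 0.81 FPKM in SK4 replicates 1 to 3, against 2.32, 1.16 and 3.58 FPKM in control replicates 1 to 3. Control replicate 3 was the highest library, SK4 replicate 3 the lowest, and the groups overlapped because SK4 replicate 2 exceeded control replicate 2.

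NDUFA4L2 encodes a mitochondrial paralog of a respiratory chain subunit and is known to lower respiration in hypoxia. It held 1.01, 2.58 and 1.48 FPKM in SK4 replicates 1 to 3, against 4.61, 1.89 and 6.42 FPKM in control replicates 1 to 3. The same control library was highest and the same SK4 library was the highest of its group.

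NXPH4 encodes neurexophilin 4, a secreted glycoprotein of the family that binds neurexins. It held 1.08, 1.58 and 1.14 FPKM in SK4 replicates 1 to 3, against 2.21, 1.34 and 2.93 FPKM in control replicates 1 to 3. Again control replicate 3 was highest, control replicate 1 next, and SK4 replicate 2 lay above control replicate 2.

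The highest library exceeded the lowest 4.42-fold for CA9, 6.36-fold for NDUFA4L2 and 2.71-fold for NXPH4. Part of this lay within groups. In the SK4 libraries alone the ratios were 2.33, 2.55 and 1.46, and in the control libraries alone 3.09, 3.40 and 2.19, in the same gene order. With the transcript lengths of GENCODE release 29, the fewest fragments in any library were about 50.2 for CA9, 44.2 for NDUFA4L2 and 79.1 for NXPH4. Counting error alone would give such numbers coefficients of variation of 14.1%, 15.03% and 11.2%. The observed coefficients over the 6 libraries were 60.6%, 69.9% and 42.2%.

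**Figure D1:**
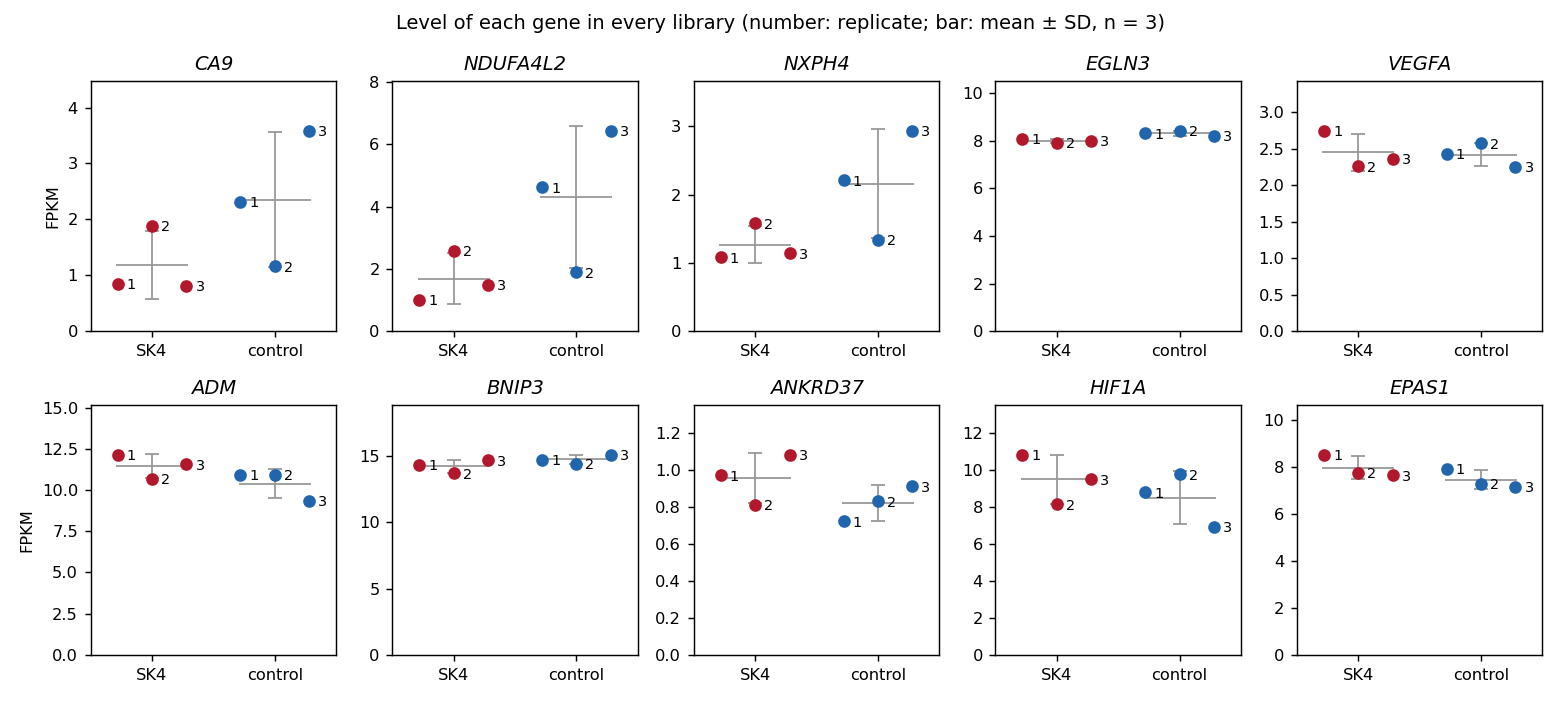
FPKM of each of the 10 genes in every library, SK4 libraries in red and control libraries in blue, with the replicate number beside each point and a grey bar for the mean ± SD of 3 libraries; each panel has its own scale from 0. CA9, NDUFA4L2 and NXPH4 spread widely in both groups with control replicate 3 on top, while EGLN3 and BNIP3 stay within narrow ranges.

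The spread of these 3 genes was large against the whole table. Tested were the 11139 genes that reached 1 FPKM in 3 or more libraries, and values were taken as log2(FPKM + 0.5). The standard deviation over the 6 libraries was 0.84 for NDUFA4L2, 0.65 for CA9 and 0.44 for NXPH4 on that scale, against a median of 0.093 over all tested genes. Only 4 tested genes had a larger one than NDUFA4L2, 9 a larger one than CA9 and 57 a larger one than NXPH4. The spread was part of why these genes were chosen, so their rank is no test.

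The other hypoxia-induced genes did not share it. EGLN3, the prolyl hydroxylase of the HIF feedback loop, held 8.09, 7.91 and 8.0 FPKM in SK4 replicates 1 to 3, against 8.32, 8.41 and 8.20 FPKM in control replicates 1 to 3. All SK4 values lay below all control values, by a small margin, as for 1.81% of all tested genes. The opposite separation, with every SK4 library higher, was seen for 0 of the 9 tested genes and for 3.53% of all tested genes. Its standard deviation of 0.032 was below that of 10576 tested genes, and its coefficient of variation of 2.34% over the 6 libraries was below the 3.80% that counting error alone gives for the library with the fewest fragments of it.

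BNIP3, a receptor that marks mitochondria for autophagy, held 14.30, 13.67 and 14.64 FPKM in SK4 replicates 1 to 3, against 14.70, 14.40 and 15.07 FPKM in control replicates 1 to 3. The groups overlapped, and the highest library exceeded the lowest 1.10-fold. Control replicate 3 was again the highest, but SK4 replicate 2, high for CA9, was the lowest.

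As deposited, VEGFA and ADM were lowest in the library where CA9 was highest. VEGFA, the growth factor for blood vessels, held 2.74, 2.26 and 2.36 FPKM in SK4 replicates 1 to 3, against 2.43, 2.57 and 2.25 FPKM in control replicates 1 to 3. ADM, the precursor of the vasodilator peptide adrenomedullin, held 12.14, 10.70 and 11.55 FPKM in SK4 replicates 1 to 3, against 10.92, 10.91 and 9.36 FPKM in control replicates 1 to 3. For both genes control replicate 3 was the lowest library as deposited and SK4 replicate 2 the next lowest. After quantile normalization or median scaling these libraries no longer both lay below all the others. After the GC correction described below, the lowest library of VEGFA was SK4 replicate 2. It lay at -0.11 from the gene's mean on the log2 scale, against -0.077 in control replicate 3. For ADM control replicate 3 was still the lowest, at -0.20. The groups overlapped.

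ANKRD37, an ankyrin repeat gene induced by HIF, was the only gene of the 10 that missed the filter on low values. It held 0.97, 0.81 and 1.08 FPKM in SK4 replicates 1 to 3, against 0.72, 0.83 and 0.91 FPKM in control replicates 1 to 3. The groups overlapped, and its coefficient of variation of 14.4% was below the 16.4% that counting error alone gives for the library with the fewest fragments of it.

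The alpha subunits were not highest where CA9 was highest. HIF1A held 10.84, 8.16 and 9.52 FPKM in SK4 replicates 1 to 3, against 8.80, 9.78 and 6.94 FPKM in control replicates 1 to 3. It too was lowest in control replicate 3 and next lowest in SK4 replicate 2, and the groups overlapped. EPAS1, the alpha subunit first known from endothelium, held 8.53, 7.77 and 7.65 FPKM in SK4 replicates 1 to 3, against 7.93, 7.30 and 7.16 FPKM in control replicates 1 to 3. Its lowest library as deposited was also control replicate 3, and the highest exceeded it 1.19-fold. After the GC correction described below, control replicate 2 was the lowest library of EPAS1.

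Agreement between genes was counted over the 15 pairs of libraries, as the number of pairs that both genes put in the same order. NDUFA4L2 and NXPH4 agreed on 15 of 15, and CA9 matched the order of each of them on 14 of 15. Of the 28 pairs among the 8 hypoxia-induced genes, these were the only 3 that agreed on 13 or more library pairs with FPKM as deposited. These counts were not repeated for single gene pairs after the GC correction described below. EGLN3 then had SK4 replicate 1 lowest, SK4 replicate 3 next and control replicate 3 highest, as had NDUFA4L2 and NXPH4. Its span was 0.12 on the log2 scale, against 2.18 and 1.11 for them. As deposited, the median over the 28 gene pairs was 53.3%, and 11 gene pairs agreed on 5 library pairs or fewer. VEGFA and HIF1A agreed on 14, ADM and HIF1A on 13, and VEGFA and ADM on 12. Between these sets the order was mostly opposite, with CA9 and HIF1A alike on 3 library pairs and NDUFA4L2 and HIF1A on 2. The 8 genes thus did not rise and fall as a block, and the description of hypoxia genes that vary between libraries holds for CA9, NDUFA4L2 and NXPH4.

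**Figure D2:**
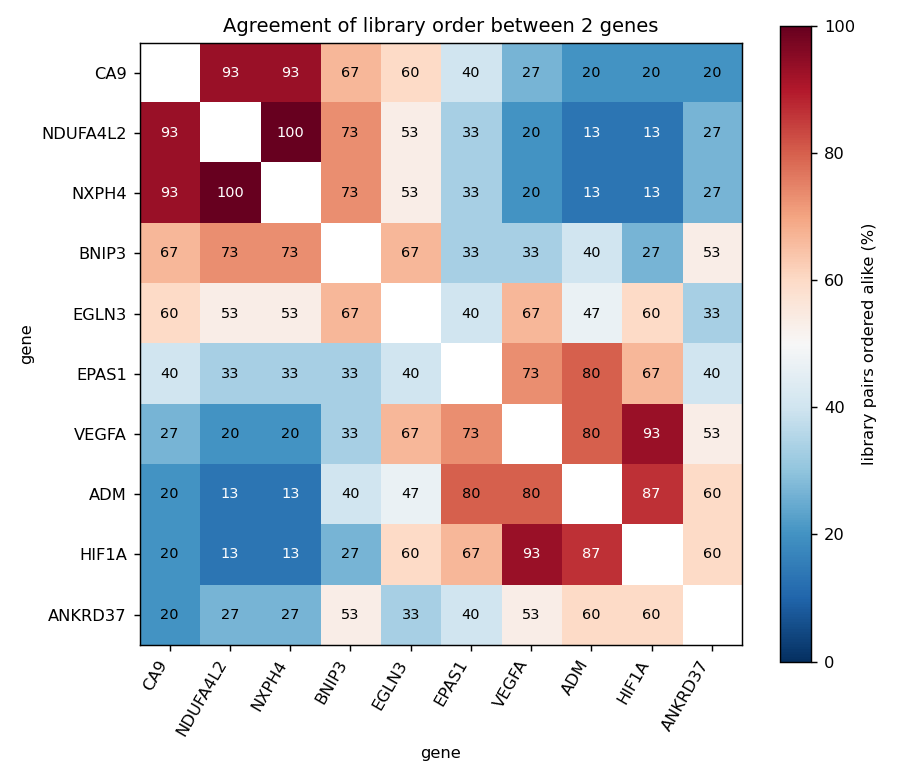
Share of the 15 library pairs that a pair of genes orders alike, in percent, for all 10 genes with FPKM as deposited; red is alike and blue opposite. CA9, NDUFA4L2 and NXPH4 form a corner at 93 to 100, while VEGFA, ADM and HIF1A form another at 80 to 93, and the fields between them lie at 13 to 27.

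The order that CA9, NDUFA4L2 and NXPH4 share (control replicate 3 above 1 above 2, and SK4 replicate 2 above the other SK4 libraries) was also met by 6.8% of all tested genes. CA9's fuller order, which also fixes its lowest SK4 library as replicate 3, was met by 3.5%. The order of VEGFA, ADM and HIF1A at the low end (control replicate 3 and SK4 replicate 2 below the other 4 libraries) was met by 36.4% of them. Both shares and the second order depend on scaling. The first order was met by CA9, NDUFA4L2 and NXPH4 in every setting with 6 libraries, and by 15.1% of all tested genes after quantile normalization and 19% after median scaling. The second was met by 24% and 23.2% of them under the same scalings, and HIF1A was then the only one of VEGFA, ADM and HIF1A to meet it. After the GC correction described next, 9.46% of all tested genes met the first order and 14% the second, which ADM and VEGFA then met and HIF1A did not. The genes were chosen with these values known, so their counts are not read against these shares.

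GC content differed between these genes. The longest transcript has 36.4% GC for HIF1A, 58.5% for ADM, 54.6% for VEGFA, 60.1% for CA9, 64.6% for NDUFA4L2 and 65.7% for NXPH4. When the median deviation of genes of like GC content (20 bins) was subtracted in each library, the span of HIF1A between its highest and lowest library shrank from 0.61 to 0.24 on the log2 scale. The spans of CA9, NDUFA4L2 and NXPH4 were 1.61, 2.18 and 1.10 after this correction, which is 98.0%, 99.4% and 98.9% of those before it. ADM and VEGFA kept 96.6% and 105% of theirs, and EPAS1 89.1%. The narrow spans of EGLN3 and BNIP3 grew to 141% and 135%, which is 0.12 and 0.18. Control replicate 3 was then the highest library for both, at 0.077 and 0.10 above their own means. In control replicate 1 the median deviation over all tested genes was 0.028 before the correction. CA9, NDUFA4L2 and NXPH4 there lay 0.44, 0.75 and 0.35 above their own means before it, and 0.44, 0.74 and 0.34 after it. The part of GC content and library state in these patterns was not tested.

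**Figure D3:**
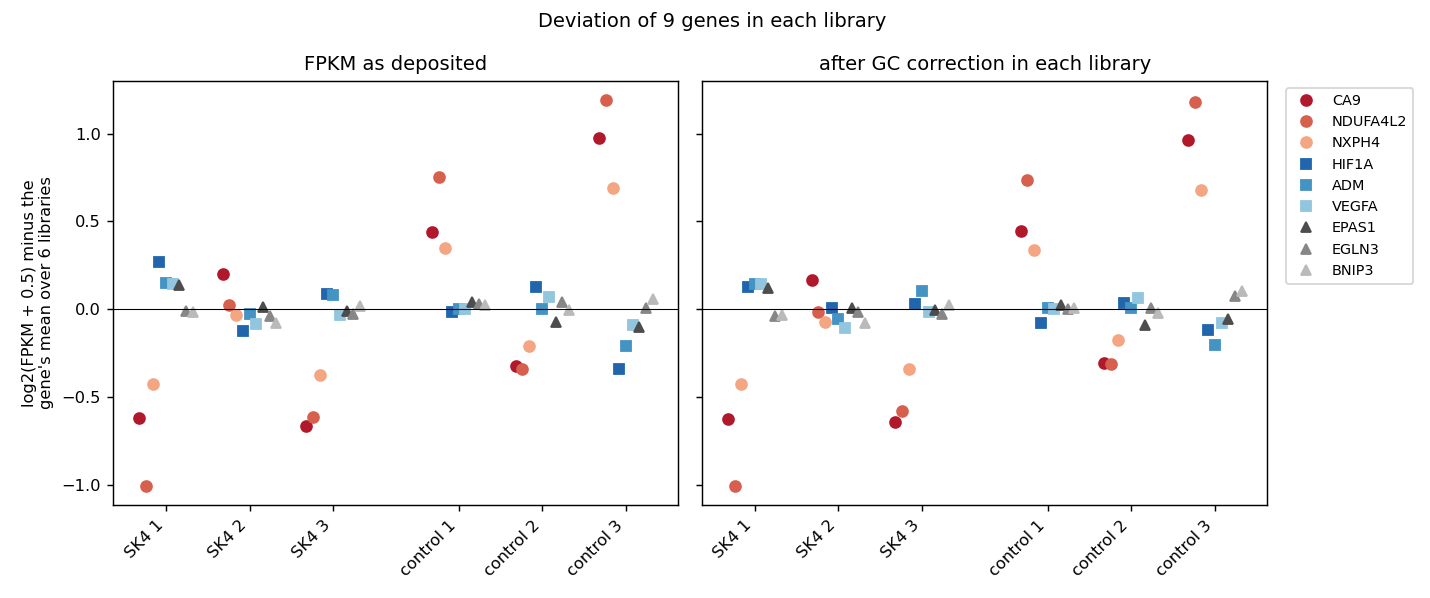
Deviation of 9 genes from their own mean over the 6 libraries, as log2(FPKM + 0.5), in each library, with the FPKM as deposited on the left and after the GC correction on the right; circles are CA9, NDUFA4L2 and NXPH4, squares HIF1A, ADM and VEGFA, triangles EPAS1, EGLN3 and BNIP3. The circles reach 0.97, 1.19 and 0.69 in control replicate 3 on the left and keep their places on the right, while HIF1A moves from -0.34 to -0.12 there.

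Some markers had the same highest and lowest library within each group as CA9, over a far narrower range, as had 3.5% of all tested genes. The monocyte marker CD14 held 3.71, 4.20 and 3.32 FPKM in SK4 replicates 1 to 3, against 3.78, 3.72 and 4.43 FPKM in control replicates 1 to 3. The keratin gene KRT8 held 129.5, 138.2 and 129.04 FPKM in the SK4 libraries, against 131.1, 124.1 and 139.99 FPKM in the control libraries, in replicate order. KRT19 followed CA9 within each group too, with 235.62, 258.53 and 226.96 FPKM in SK4 replicates 1 to 3. In control replicates 1 to 3 it held 234.19, 217.44 and 244.28 FPKM. Unlike CA9, its highest library of all was SK4 replicate 2, and KRT8 and KRT19 were both lowest in control replicate 2. KRT18 met the order that CA9, NDUFA4L2 and NXPH4 share, as did 6.8% of all tested genes. It held 169.83, 181.67 and 171.66 FPKM in the SK4 and 173.27, 170.96 and 178.71 FPKM in the control libraries. The remaining epithelial markers did not follow. KRT7 held 55.99, 50.12 and 51.21 FPKM in control replicates 1 to 3. EPCAM was lowest in control replicate 3 at 10.39 FPKM, and CDH1 was highest in SK4 replicate 1 at 1.97 FPKM. The T cell gene CD3D held 3.31, 3.99 and 4.30 FPKM in SK4 replicates 1 to 3, against 4.89, 4.76 and 5.65 FPKM in control replicates 1 to 3. CD3D did not follow the order of CA9, since replicate 3 was its highest SK4 library. All its SK4 values lay below all control values, as for 1.81% of all tested genes. Of other leukocyte markers, PTPRC was at or below 0.01 FPKM, CD3E at or below 0.04 FPKM and LYZ at or below 0.23 FPKM. The part of other cells in the pattern of CA9, NDUFA4L2 and NXPH4 was not tested.

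Likeness to CA9 was then measured over all tested genes, as the root mean square difference between profiles centred on their mean over the 6 libraries. Of 11138 other genes, NXPH4 ranked 1 (difference 0.22) and NDUFA4L2 ranked 2 (0.23). BNIP3 ranked 2237, EGLN3 2822, EPAS1 6281, VEGFA 7284, ADM 9287 and HIF1A 10925. For the profile of NDUFA4L2, CA9 ranked 1 and NXPH4 2. The ranks rest on the same 6 libraries whose values chose these genes, so they are no test. The measure also favours genes of like spread, and only 57 tested genes had a larger spread than NXPH4. Without both control replicate 3 and SK4 replicate 2, NXPH4 ranked 2 and NDUFA4L2 21 in likeness to CA9. NDUFA4L2 ranked 8 without control replicate 3 alone and 5 without SK4 replicate 3.

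Among protein-coding genes outside the 10, the 5 most like CA9 were CRB3 (difference 0.40), NDRG1 (0.42), LRRC75A (0.42), FXYD2 (0.42) and CLIC3 (0.42). CRB3 encodes a polarity protein of epithelia, FXYD2 a regulator of the sodium-potassium pump, and CLIC3 a chloride intracellular channel protein. The 5 most like NDUFA4L2 were FXYD2 (0.58), LRRC75A (0.58), TUBA1A (0.58), NDRG1 (0.59) and CD3D (0.59), a gene of the T cell receptor complex. TUBA1A has near-identical tubulin copies, so its reads may be split. NDRG1, which appears beside both genes, is itself induced in hypoxia. It held 1.76, 2.29 and 1.88 FPKM in SK4 replicates 1 to 3, against 2.35, 2.19 and 2.90 FPKM in control replicates 1 to 3. Its highest and lowest libraries are those of NDUFA4L2, at a ratio of 1.65.

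NXPH4 and NDUFA4L2 are neighbours in the genome. In GENCODE release 29 on GRCh38, NXPH4 lies on the plus strand of chromosome 12 at 57216795 to 57226449 and NDUFA4L2 on the minus strand at 57234903 to 57240715, with 8453 bp between them. SHMT2, which encodes the mitochondrial serine hydroxymethyltransferase, fills most of that gap at 57229327 to 57234935. Its last exon overlaps NDUFA4L2 by 33 bp on the opposite strand. SHMT2 held 61.90, 66.94 and 63.61 FPKM in SK4 replicates 1 to 3, against 62.76, 63.65 and 70.61 FPKM in control replicates 1 to 3. Its highest library was also control replicate 3, but the ratio of highest to lowest was 1.14. Of the flanking genes, LRP1, a lipoprotein receptor gene, ranged 1.19-fold, R3HDM2 1.11-fold, and STAC3, at 0.34 to 0.57 FPKM, 1.68-fold with its lowest values in SK4 replicate 2 and control replicate 3. CA9 lies apart from them, on the plus strand of chromosome 9 at 35673856 to 35681159. It shares 643 bp of exon sequence with ARHGEF39 on the opposite strand, which ranged from 1.80 to 2.11 FPKM. The libraries kept the strand, but whether the counting used it is not given in the sources used here. ANKRD37 shares 909 bp with UFSP2 in the same way. The low values of ANKRD37 and CA9, and those of NDUFA4L2 beside the far more abundant SHMT2, are uncertain for this reason.

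**Figure D4:**
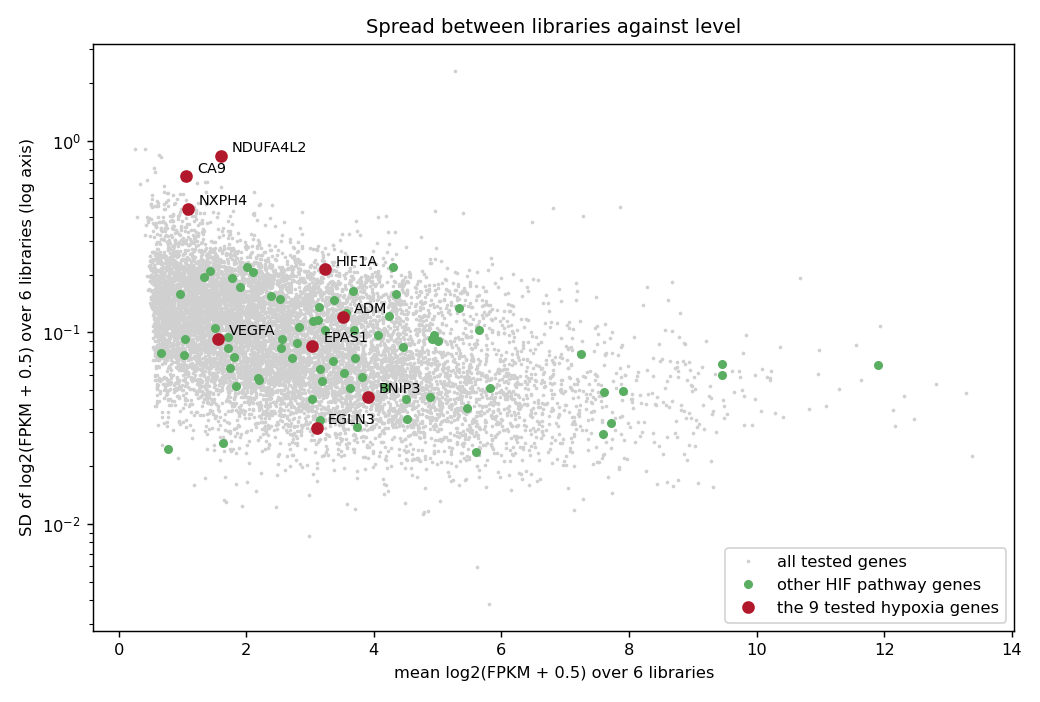
Standard deviation of log2(FPKM + 0.5) over the 6 libraries (log axis) against the mean of the same values, with all 11139 tested genes in grey, other HIF pathway genes in green and the 9 tested hypoxia genes in red. NDUFA4L2, CA9 and NXPH4 lie at 0.84, 0.65 and 0.44, above all green points. BNIP3 lies at 0.046 and EGLN3 at 0.032, below 9459 and 10576 of the tested genes.

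Between the plasmids, none of the 9 tested genes was called, against 0.00898% of all tested genes (limma, adjusted p below 0.05, which KCNN4 alone passed). NDUFA4L2 and NXPH4 had an unadjusted p below 0.05, as did 1.65% of all tested genes. CA9 averaged 1.18 ± 0.612 FPKM in the SK4 libraries and 2.35 ± 1.21 FPKM in the control libraries (SD, n = 3 each; log2 fold change -0.73). NDUFA4L2 averaged 1.69 ± 0.806 FPKM in the SK4 and 4.31 ± 2.28 FPKM in the control libraries (log2 fold change -1.07), and NXPH4 1.27 ± 0.273 and 2.16 ± 0.796 FPKM in the same order (log2 fold change -0.56). For these 3 genes the difference between group means was about as large as the SD of the control libraries and larger than that of the SK4 libraries. HIF1A averaged 9.51 ± 1.34 FPKM in the SK4 and 8.51 ± 1.44 FPKM in the control libraries (log2 fold change 0.16), a difference smaller than either spread. It was 0.025 without control replicate 3, 0.061 without SK4 replicate 1, and 0.26 without either control replicate 2 or SK4 replicate 2. The log2 fold changes of ADM, EPAS1, VEGFA, BNIP3 and EGLN3 were 0.14, 0.091, 0.016, -0.050 and -0.052. That of ADM was 0.066 without control replicate 3, and that of EPAS1 was 0.045 without SK4 replicate 1. That of BNIP3 was -0.024 without SK4 replicate 2 and -0.0077 without control replicate 3 as well. Every one of the 9 had an adjusted p of 0.99997 (limma).

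The 2 libraries that stood apart pull in opposite directions, since control replicate 3 is the highest control and SK4 replicate 2 the highest SK4 library for CA9, NDUFA4L2 and NXPH4. Without both of them CA9 held 0.85 and 0.81 FPKM in the SK4 libraries and 2.32 and 1.16 FPKM in the control libraries. NDUFA4L2 then held 1.01 and 1.48 FPKM in the SK4 and 4.61 and 1.89 FPKM in the control libraries, and NXPH4 1.08 and 1.14 FPKM against 2.21 and 1.34 FPKM in the same order. All 3 genes, and EGLN3, then had all SK4 values below all control values, as had 19.3% of all tested genes. None of them was called in that fit (limma). The log2 fold change of CA9 was -0.42 without control replicate 3 and -1.07 without control replicate 2, and that of NXPH4 was -0.35 without control replicate 3. For NDUFA4L2 the same left-out libraries gave -0.74 and -1.50. The part that the state of these libraries plays in the difference between plasmids was not tested.

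Other genes of the HIF pathway varied far less. The machinery of oxygen sensing had 18 of its 20 listed symbols in the table and 15 tested. None was called in either direction, and none had an unadjusted p below 0.05 (limma). The median log2 fold change was -0.010, with 5 of 15 positive, against a median of 0.011 and 57.9% positive over all tested genes. The count positive was 13 of 15 without SK4 replicate 2 and 4 of 15 without control replicate 3. The widest ratio of highest to lowest library was 1.58. VHL, the ubiquitin ligase subunit that recognises hydroxylated HIF, averaged 12.2 ± 0.921 FPKM in the SK4 and 12.6 ± 1.06 FPKM in the control libraries (SD, n = 3 each). EGLN1, the main prolyl hydroxylase, averaged 5.28 ± 0.637 and 5.37 ± 0.692 FPKM in the same order. CITED2, which competes with HIF for its coactivators, averaged 51.5 ± 3.02 FPKM in the SK4 and 47.9 ± 3.48 FPKM in the control libraries. Of these 15 genes 10 had control replicate 3 and SK4 replicate 2 as their lowest libraries, the order of HIF1A, against 36.4% of all tested genes. The ubiquitin ligase adaptor gene ELOB, 1 of the 15, had the order of CA9, NDUFA4L2 and NXPH4, against 6.8% of all tested genes.

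Of 57 further hypoxia-induced genes outside glycolysis, 56 were in the table and 37 were tested. None was called (limma). DUSP1, a phosphatase of MAP kinases, and ISG20, an exonuclease, had an unadjusted p below 0.05, which makes 2 of 37, against 1.65% of all tested genes. Over the 37 the median log2 fold change was 0.0085, with 20 of 37 positive, against 57.9% of all tested genes. PLOD1, a collagen-modifying enzyme, averaged 48.2 ± 0.810 FPKM in the SK4 and 47.9 ± 0.930 FPKM in the control libraries. DDIT4, a brake on mTOR signalling, averaged 28.8 ± 0.286 and 29.04 ± 1.45 FPKM in the same order. P4HA1, which hydroxylates collagen prolines, averaged 19.8 ± 2.29 and 20.04 ± 2.57 FPKM likewise. The median ratio of highest to lowest library was 1.20, against 1.21 over all tested genes, and the widest was the 1.65 of NDRG1. The shared order of CA9, NDUFA4L2 and NXPH4 was met by 5 of the 37, ANGPTL4, ENO2, HILPDA, LOXL2 and NDRG1, against 6.8% of all tested genes. The order of HIF1A was met by 10, among them P4HA1, TFRC and ERO1A, against 36.4%.

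Of 21 genes of glucose uptake and glycolysis, 18 were tested. None was called, and the count with an unadjusted p below 0.05 was 0 (limma). Their median log2 fold change was -0.018, with 3 of 18 positive, against 0.011 and 57.9% positive over all tested genes. That count depends on single libraries. It was 8 of 18 without SK4 replicate 1 and 1 of 18 without both control replicate 3 and SK4 replicate 2. GAPDH averaged 3778 ± 183 FPKM in the SK4 and 3876 ± 207 FPKM in the control libraries, PGK1 148 ± 5.83 and 155 ± 9.89 FPKM, and LDHA 207 ± 2.36 and 211 ± 6.39 FPKM in the same order. The median ratio of highest to lowest library was 1.10 and the widest 1.35. The order of CA9, NDUFA4L2 and NXPH4 was met by 5 of the 18, GAPDH, GPI, PFKL, SLC16A3 and the glucose transporter gene SLC2A1, over ranges of this size. The count meeting this order depends on scaling: with each library set to the same median, 9 of the 18 and 12 of the 37 other targets met it, and 19.0% of all tested genes did.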

How the data were processed

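Polyadenylated RNA was sequenced from 6 libraries as stranded paired-end reads, per the labels' protocols. The submitters' processing notes name HISAT2 and GRCh38. Versions, counting tool and annotation release are not given in the sources used here. Values came as FPKM to 2 decimals in a single table that the authors deposited. Depth was estimated from FPKM steps of 561 single-exon genes shorter than 160 nt; 99.4% to 99.5% of values worth up to 5 fragments were whole within 0.1. The counting errors cover counting only, and the authors' gene lengths may differ from GENCODE release 29.

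Groups came from the titles. The genes reaching 1 FPKM in 3 or more libraries were fitted as log2(FPKM + 0.5) with limma 3.58.1 in R 4.3.3 (trended, robust prior, group as the only term), adjusted by Benjamini-Hochberg over 11139 genes and called below 0.05. Fold changes on this scale understate those of low genes. The fit was tested on simulated data. Tables were made in Python 3.11.15. GC content was known for 99.3% of tested genes. The members and lists were chosen with earlier results of these data known. Named genes were the 10, their neighbours, abundant list members and the 5 genes most like CA9 or NDUFA4L2; other list genes, ARHGEF39 and UFSP2 were named after their values were seen. Alternatives covered pseudocount, filter, scaling, weights, prior, replicate term, left-out libraries and, added later, GC content.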

Additional observations from a re-analysis of the deposited data

How the results depend on the processing

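No hypoxia gene was called under any of the 149 refits of a member's fold change (limma), and 145 kept their direction. VEGFA, near 0 as deposited, had a log2 fold change of -0.0029 after quantile normalization, -0.027 with library weights, and between -0.053 and 0.063 when libraries were left out. Over all genes 1 was called in every setting but the fit without control replicate 3 and SK4 replicate 2, with 4. With the replicate number as a block (replicate block) 1 gene was called, and the fold changes of CA9 (-0.73), NDUFA4L2 and NXPH4 were as without it. In deviations from the group mean, same-numbered libraries had r across genes of 0.31, -0.41 and -0.15 for numbers 1, 2 and 3. The largest r, 0.53, was between SK4 replicate 2 and control replicate 3. Such deviations sum to 0 in each group of 3, so they cannot decide whether a number marks a culture, day or batch. Among the 7 tested hypoxia-induced genes, and with ANKRD37 where no filter was set, the median agreement over gene pairs was 50% to 60% over all settings with a value. Single gene pairs ranged from 0% to 100% after median scaling. The median agreement of CA9, NDUFA4L2 and NXPH4 was 100% after median scaling and 83.3% to 100% with libraries left out. Their shared order was met by 11 of the 37 further targets after quantile normalization and 12 after median scaling, and by 9 of the 18 glycolysis genes after median scaling. The oxygen sensing median was -0.078 without control replicate 3 and lay up to 0.028 with other libraries left out. The filter at 5 FPKM removed CA9, NDUFA4L2, NXPH4 and VEGFA, so agreement has no value there. With 3 libraries a group, single libraries were not tested as outlying. Depth limits CA9, NDUFA4L2, NXPH4 and ANKRD37 most, whose fewest fragments in a library number 37.3 to 79.1.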
